A study of Mus musculus with 11 samples.

Results

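Mouse zygotes made with round spermatids were compared with zygotes made with sperm, across all genes, in 5 of the 11 samples of the series. The 5 samples were chosen by their labels: 2 of zygotes from round spermatid injection (ROSI) and 3 of zygotes from intracytoplasmic sperm injection (ICSI). The other 6 samples, 3 ROSI and 3 ICSI samples of 2-cell embryos, entered the same model and served as a later stage for side-by-side values. All embryos were C57BL/6. ROSI zygotes had been activated for 1 to 2 h with 5 mM SrCl2 in CZB medium free of calcium and then moved to KSOM, whereas ICSI zygotes were kept in KSOM. The kind of paternal cell and the activation treatment therefore differed together and cannot be told apart in any comparison given here. The labels give no number of embryos in a sample, no time of collection and no statement that samples of a group came from separate cultures, so p-values measure only the spread between these samples. Because each sample is bulk RNA, fewer embryos carrying a transcript and less of it in each embryo cannot be told apart.

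A round spermatid is the haploid male germ cell just after meiosis, and it still transcribes and stores mRNA for the acrosome, the tail and the compact nucleus that it will build. A mature sperm has shed nearly all of its cytoplasm and its nucleus is packed with protamines. Sperm also bring the phospholipase that starts the calcium oscillations of egg activation, which round spermatids of the mouse do not do well, so an artificial stimulus such as strontium is commonly given. The zygote itself holds mostly RNA stored by the oocyte, and its own genome is only beginning to be transcribed.

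The values were TPM (transcripts per 1000000), a share of each sample that adjusts for gene length. Reads recovered from the step size of the values came, in units of 1000000, to between 30.4 and 86.0 per zygote sample, with the lowest in the first ROSI sample. Of 49585 genes in the table, 21938 reached 1 TPM in at least 2 samples and were tested. Oocyte markers were at high levels in all 5 samples, for example Bmp15, an oocyte growth factor, between 1516 and 1727 TPM. The summed level of 4 Sertoli markers lay between 0.211 and 1.19 TPM and that of 3 blood markers between 0.00544 and 0.436 TPM, with Amh and Hbb-bs listed at 0 throughout. Summed markers of cumulus cells ranged from 0.598 to 1.92 TPM. The class of small nuclear and nucleolar RNA set 1 sample of each group apart: it took 0.611% of TPM in the first ROSI and 0.572% in the first ICSI sample, against 1.64% to 2.58% in the other 3. Medians of the main lists are also given within both classes, as the first ROSI against the first ICSI sample and as the other 3 samples.

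Differences are ROSI minus ICSI in log2(TPM + 1), with the standard error (SE) of the limma model. Adding 1 makes folds of genes at low levels look smaller than they are. Sample values follow the order of the sample numbers. In all, 25 genes were higher in ROSI zygotes, 0.114% of those tested, and 7 were lower, 0.0319%, at a Benjamini-Hochberg adjusted p below 0.05. At an unadjusted p below 0.05 there were 477 higher and 915 lower genes. The typical gene differed little: the median was -0.06, and the middle 90% of genes lay between -0.54 and 0.46. Only 2 of the 32 genes, Crisp2 and Gm45027, passed whichever single zygote sample was left out. Without the third ICSI sample 3 genes were higher and 1 was lower, without the first ROSI sample 6 and 2, and without the second ROSI sample 77 and 7. A model of the zygote samples alone, which has fewer samples to estimate the spread, called no gene (limma), with 1899 at an unadjusted p below 0.05.

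**Figure D1:**
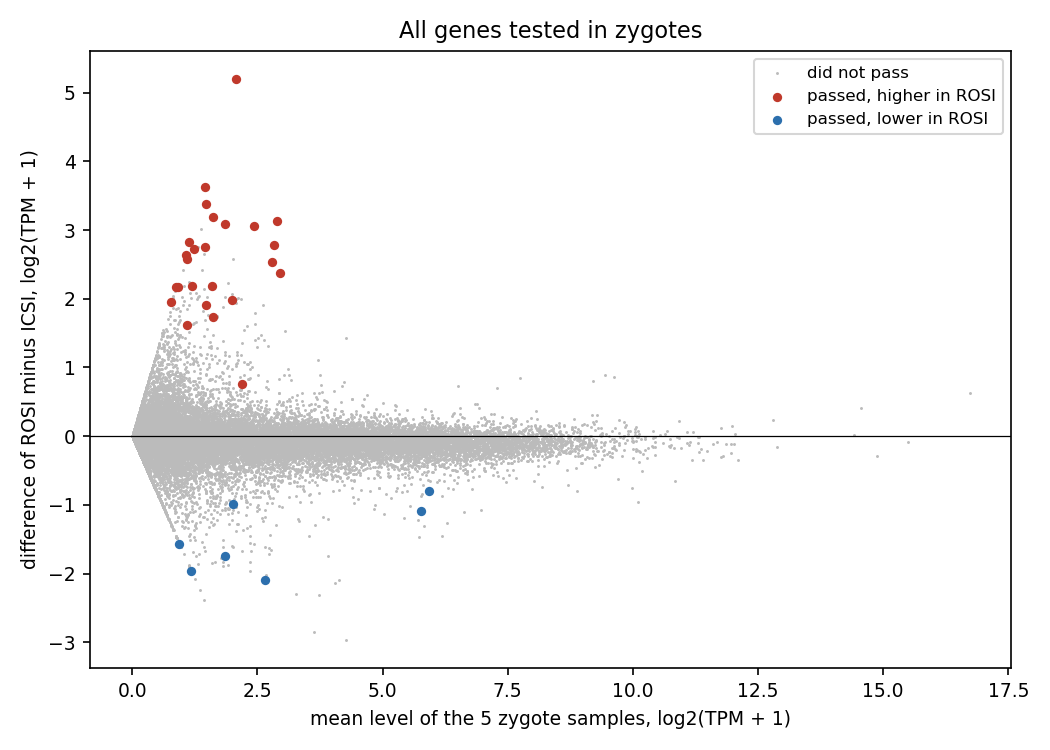
Difference of ROSI minus ICSI zygotes against the mean level of the 5 zygote samples for the 21938 genes tested, 1 point per gene, both on the scale of log2(TPM + 1). The 25 genes that passed as higher lie above the axis at low to middling levels, and of the 7 that passed as lower, Smc3 and Stbd1 have the highest levels.

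Of the 25 higher genes, 18 were protein-coding, 4 were microRNA loci, 2 were long intergenic noncoding RNAs and 1 was a pseudogene. By the gene lists used here, 15 belonged to a list of spermatid transcripts or of X-linked testis microRNAs and 5 were clones named from testis libraries, which leaves Gm45027, Mir7683, Eid3, BC051142 and Plekhf2 outside them. The genes of highest mean level among the 25 that code for protein were Meig1, Ldhc and Dbil5, all near or under 30 TPM, so the higher genes made up a small part of the zygote's RNA.

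Of the microRNA loci, 3 lie together on the X chromosome in a cluster of hairpins expressed in male germ cells. Their mature forms, from RefSeq on GRCm38.p6, are shown because both the loci and their seeds (bases 2 to 8, in capitals) are what the cluster members share or do not share. Mir470 lies at chrX:66813961-66814017, Mir878 at chrX:66801518-66801575 and Mir741 at chrX:66796809-66796869, all on the minus strand, counted from the first to the last base of the mature arms. The arms of the 3 loci and the 5′ arm of the neighbour Mir471 read as follows.
mmu-miR-470-5p: uUCUUGGAcuggcacuggugagu
mmu-miR-470-3p: aACCAGUAccuuucugagaaga
mmu-miR-878-5p: uAUCUAGUuggaugucaagaca
mmu-miR-878-3p: gCAUGACAccacacuggguaga
mmu-miR-741-5p: uACGUAGAuugguaccuaucaug
mmu-miR-741-3p: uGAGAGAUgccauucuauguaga
mmu-miR-471-5p: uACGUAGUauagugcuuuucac
None of the 6 arms of the called loci has the seed of any other arm of the cluster in the table used. The 5′ arms of miR-741 and miR-471 have the same bases 2 to 7 and part at base 8. Reads at such a locus can come from the hairpin, its precursor or the mature form, and the files do not separate them.

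Mir470 was at 11.9 and 27.8 TPM in the ROSI zygotes and at 0.517, 2.66 and 1.2 TPM in the ICSI zygotes, a difference of 3.07 (SE 0.42, limma adjusted p = 0.0292). These values rested on 9 and 61 reads against 1, 5 and 2. Mir878 was at 16.6 and 28.4 TPM against 3.97, 3.58 and 0.579 TPM, a difference of 2.79 (SE 0.41, limma adjusted p = 0.0371). Mir741 was at 2.80 and 4.33 TPM, on 2 and 9 reads, while the ICSI samples all had it listed at 0 (limma adjusted p = 0.0371). The groups did not overlap at any of these 3 loci, and the second ROSI sample was the higher one at each. The calls rested on single samples: without the first ROSI sample the adjusted p was 0.0516 for Mir470, 0.128 for Mir878 and 0.162 for Mir741. The list of X-linked testis microRNAs had 16 members tested of 23 in the table, of which these 3 passed as higher and none as lower (against 0.114% and 0.0319% of all genes). Its median difference was 1.35, against -0.06 for all genes. It was 0.66 within the class poor in small nuclear RNA and 1.85 among the other samples, and for Mir878 the difference was 1.82 and 3.45. The part of RNA class in this was not tested. In the list, 6 of the 16 had both ROSI samples above every ICSI sample (37.5%, against 6.97% of all genes). Members at or near 0 after ICSI could hardly be lower. The counts, share and median of the list therefore describe it and do not bear on its direction. Mir463 (6.64 and 8.19 TPM against 2.07, 0 and 1.81 TPM) and Mir471 (11.9 and 6.11 TPM against 4.05, 0 and 0.674 TPM) had non-overlapping samples and did not pass. Mir871 lay on the other side, at 1.29 and 0.443 TPM against 2.52, 3.11 and 2.93 TPM, and did not pass either. In 2-cell embryos Mir878 stood between 150 and 176 TPM after ROSI and between 118 and 120 TPM after ICSI, and its 2-cell difference of 0.42 did not pass (limma adjusted p = 0.506).

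Genes of the sperm tail included 3 that were higher. Meig1, needed to assemble the sperm tail, was at 38.5 and 18.0 TPM in ROSI zygotes and at 1.93, 2.10 and 2.33 TPM in ICSI zygotes, a difference of 3.14 (SE 0.34, limma adjusted p = 0.0102). Cetn1, a centrin of germ cells, was at 17.0 and 6.35 TPM against 0.373, 0.416 and 0.0362 TPM (3.19, SE 0.36, limma adjusted p = 0.0102). Tcp11, a testis protein linked to sperm motility, was at 12.2 and 5.21 TPM against 1.35, 1.01 and 1.53 TPM (1.98, SE 0.28, limma adjusted p = 0.0349). For each of the 3, both ROSI samples lay well above the highest ICSI sample. Of 42 tail genes tested, these 3 passed as higher and none as lower (against 0.114% and 0.0319% of all genes). Both ROSI samples lay above every ICSI sample for 21 of the 42 (50%, against 6.97% of all genes). The list's median was 0.37, with 0.69 within the class poor in small nuclear RNA and 0.22 among the other samples. Rsph1, a radial spoke protein, was at 12.7 and 8.30 TPM against 2.93, 3.91 and 3.88 TPM (limma adjusted p = 0.0592), and Tekt3, a tektin of the axoneme, at 1.65 and 1.58 TPM against 0.133, 0.0228 and 0.0258 TPM (limma adjusted p = 0.0704). Odf1, of the outer dense fibres, was at 5.59 and 2.72 TPM against 0.947, 0.541 and 0.940 TPM without passing, while Akap4, of the fibrous sheath, was at 4.67 and 2.93 TPM against 2.52, 2.03 and 2.86 TPM. Without the third ICSI sample the adjusted p was 0.0517 for Meig1 and Cetn1 and 0.104 for Tcp11, and without the first ROSI sample it was 0.0639, 0.057 and 0.146.

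Genes for the mitochondrial sheath and for germ-cell forms of metabolic enzymes gave 4 higher genes of 24 tested, and none lower (against 0.114% and 0.0319% of all genes). Smcp, a protein of the sperm mitochondrial capsule, was at 19.6 and 6.43 TPM after ROSI, while every ICSI zygote sample had it listed at 0 (limma adjusted p = 0.0102). Ldhc, the lactate dehydrogenase of germ cells, was at 29.4 and 13.3 TPM against 2.89, 3.13 and 3.06 TPM, a difference of 2.38 (SE 0.27, limma adjusted p = 0.0102). Pgam2, a phosphoglycerate mutase found in muscle and testis, was at 20.5 and 7.03 TPM against 0.507, 0.427 and 0.699 TPM (3.09, SE 0.36, limma adjusted p = 0.0104). Dbil5, a testis relative of the acyl-CoA-binding proteins, was at 29.1 and 12.2 TPM against 1.33, 3.98 and 2.49 TPM (2.54, SE 0.40, limma adjusted p = 0.0463). Dbil5 overlaps Glod4 and Gemin4 on the opposite strand, and the sources do not say whether reads were counted by strand. The list's median difference was 0.67, with 0.88 within the class poor in small nuclear RNA and 0.43 among the other samples. Both ROSI samples were above every ICSI sample for 14 of its 24 members (58.3%, against 6.97% of all genes). Gk2, a glycerol kinase of germ cells (8.31 and 1.78 TPM against 0.247, 0.0212 and 0.0960 TPM), and Cox8c, a testis subunit of cytochrome c oxidase (11.1 and 7.81 TPM against 1.55, 1.42 and 1.80 TPM), did not pass. Without the third ICSI sample the adjusted p was 0.0517 for Smcp, Ldhc and Pgam2 and 0.164 for Dbil5.

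Among 25 genes of the acrosome and sperm surface, Crisp2 alone passed, as higher (against 0.114% of all genes). Crisp2, a cysteine-rich secretory protein of the acrosome and tail, was at 17.2 and 6.06 TPM after ROSI and at 0.149, 0 and 0.124 TPM after ICSI (3.38, SE 0.34, limma adjusted p = 0.0102), and its highest adjusted p over the 5 omissions was 0.0493. In this list 15 members had both ROSI samples above every ICSI sample (60%, against 6.97% of all genes) and 2 had both below (8%, against 19.4%). Its median was 0.46, with 0.55 within the class poor in small nuclear RNA and 0.24 among the other samples. Spata16, needed for acrosome formation, was at 8.30 and 2.50 TPM against 0.587, 0.699 and 0.556 TPM. Iqcf4, of a sperm protein family, was at 2.24 and 1.62 TPM against 0, 0 and 0.0597 TPM, and Spesp1, of the equatorial segment, at 2.55 and 1.35 TPM against 0.204, 0.0655 and 0.0742 TPM. Their adjusted p-values were 0.103, 0.0566 and 0.12 (limma). Eqtn, of the acrosomal membrane, was at 1.78 and 1.96 TPM against 0.903, 0.496 and 1.05 TPM without passing.

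The proteins that package spermatid DNA differed among themselves. Tnp1, a transition protein that replaces histones, was at 4.56 and 4.76 TPM in ROSI zygotes and at 0.443, 0.0912 and 0.207 TPM in ICSI zygotes (2.19, SE 0.28, limma adjusted p = 0.0207). It was the only 1 of 11 members tested to pass, and without the first ROSI sample its adjusted p was 0.163. Tnp1 overlaps the antisense gene 1700027A15Rik, which was at 0.428 and 0 TPM in the ROSI samples and at 0, 0.457 and 0 TPM in the ICSI samples. Its partner Tnp2 was at 9.79 and 1.80 TPM against 0, 0.0726 and 0 TPM, so the groups did not overlap but the ROSI samples lay far apart (limma adjusted p = 0.0908). Of the protamines, Prm1 was at 5.52 and 1.6 TPM against 0.330, 1.02 and 0.0963 TPM, and Prm3 at 1.70 and 1.66 TPM against 0.189, 0 and 0 TPM, neither passing. Prm2 was abundant in both kinds of zygote, at 31.1 and 28.7 TPM against 23.2, 20.8 and 17.1 TPM, with a difference of 0.54 (SE 0.37, limma adjusted p = 1). Hist1h2aa, a histone gene of the list, was at 536 and 541 TPM against 633, 734 and 800 TPM, with both ROSI samples below every ICSI sample, and did not pass (limma adjusted p = 0.34).

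Genes for kinases, channels and chaperones of germ cells had no passing member among 27 tested, although 13 had both ROSI samples above every ICSI sample (48.1%, against 6.97% of all genes) and 3 had both below (11.1%, against 19.4%). Plcz1, the sperm phospholipase C zeta, was at 2.02 and 0.680 TPM in ROSI zygotes and at 0.0154, 0 and 0 TPM in ICSI zygotes, on 51 and 50 reads against 1, 0 and 0 (limma adjusted p = 0.426). Clgn, a chaperone of the spermatid endoplasmic reticulum, was at 7.89 and 4.43 TPM against 2.06, 2.20 and 1.91 TPM (limma adjusted p = 0.0782). Hspb9 and Tsga8 were at 6.58 and 1.65 TPM and at 5.21 and 1.31 TPM after ROSI, with no ICSI sample above 0.439 TPM. Dnajb3 was at 3.98 and 1.66 TPM against 0.553, 0.493 and 0.0430 TPM.

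Germ-cell regulators of RNA gave 2 higher genes of 29 tested (against 0.114% of all genes). Pabpc2, which binds poly(A) tails in testis, was at 9.39 and 2.82 TPM after ROSI and at 0, 0 and 0.0349 TPM after ICSI (2.64, SE 0.38, limma adjusted p = 0.0371). Papolb, the testis poly(A) polymerase, was at 4.49 and 2.17 TPM against 0.347, 0.376 and 0.373 TPM (1.61, SE 0.23, limma adjusted p = 0.0371). Pabpc6 (4.28 and 1.79 TPM against 0.0845, 0.883 and 0.647 TPM) and Tdrd6, a component of the chromatoid body (6.08 and 2.36 TPM against 1.11, 1.17 and 1.19 TPM), did not pass. Crem, the transcription factor of post-meiotic genes, was at 2.90 and 1.85 TPM against 1.46, 1.42 and 1.54 TPM (limma adjusted p = 0.786). The list's median difference was 0.10. In the list of sex-linked spermatid genes 1 of 15 tested passed, as higher (against 0.114% of all genes). It was Cypt12, at 9.23 and 6.20 TPM against 0, 1.09 and 0 TPM (2.75, SE 0.38, limma adjusted p = 0.0292). The annotation used here places Cypt12 on chromosome 3, so it is a relative of the X-linked Cypt genes and not itself X-linked. Cypt4, which the annotation places on chromosome 9, was at 2.06 and 0.109 TPM against 0.0616, 0 and 0 TPM and did not pass. Cypt3 (0.442 and 1.92 TPM against 0, 0 and 0.201 TPM) and Mtap7d3 (1.17 and 1.30 TPM against 0.590, 0.331 and 0.593 TPM) did not pass either.

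Over the 7 lists of spermatid mRNAs together, 171 of 223 genes in the table were tested, 12 passed as higher and none as lower (against 0.114% and 0.0319% of all genes). Akap4 and Tsga8 are in more than 1 of them. Members near 0 after ICSI could pass the filter only through samples in which they were high and could hardly be lower, so these counts describe the lists and do not bear on their direction. The median difference was 0.34, and 0.26 without a filter, when 218 genes were used. The summed level of 9 spermatid markers was 99.4 and 55.8 TPM after ROSI and 28.4, 25.3 and 21.8 TPM after ICSI. Within the class poor in small nuclear RNA the median was 0.45 and among the other samples 0.20. Without the third ICSI sample 1 member passed, without the first ROSI sample 4, and without the second 26.

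**Figure D2:**
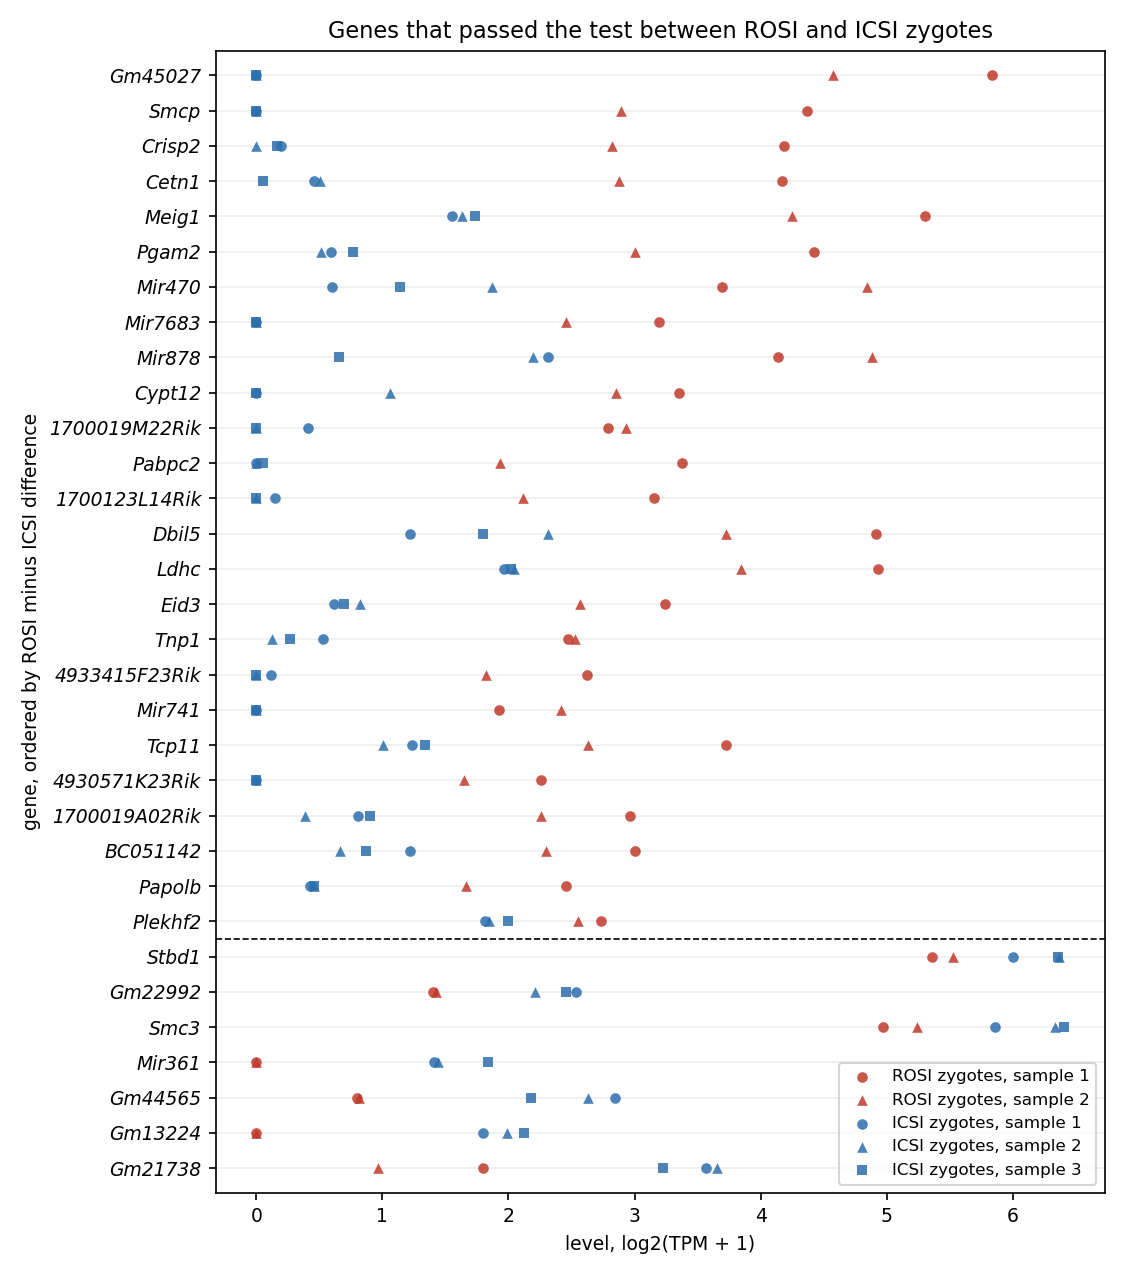
Levels in each zygote sample, as log2(TPM + 1), of the 32 genes that passed, ordered by their difference, with ROSI in red and ICSI in blue and a symbol for each sample number. The groups do not overlap for any of them, and the first ROSI sample (circle) lies right of the second (triangle) for 20 of the 25 higher genes.

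The 2 ROSI samples differed in how much of this RNA they held. Of the 25 higher genes, 20 were higher in the first ROSI sample than in the second. For the 21 that are not microRNA loci the ratio of the first to the second had a median of 2.14 and ran from 0.888 to 3.33, whereas it had a median of 1.04 over the 13445 genes with at least 1 TPM in both. For the 4 microRNA loci the median ratio was 0.616. Tnp1 and 1700019M22Rik, unlike most of the mRNAs, were at about equal levels in both samples. In reads, the second sample had the greater depth, and the genes varied: Smcp had 180 and 172, Pgam2 173 and 173, Meig1 426 and 582, Eid3 111 and 188 and Tnp1 20 and 61. The second sample is also the one with the larger share of small nuclear RNA, and the part of depth, RNA class and embryo number in this was not tested. Fhl4, a LIM-domain gene of germ cells, was at 11.3 and 3.19 TPM against 0.403, 0.359 and 0.267 TPM, with a limma adjusted p of 0.0805 and ROSI samples that lay far apart.

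The higher genes outside these lists were of several kinds. Gm45027, a long intergenic noncoding RNA at chr11:77200125-77200819 with 78 bases of exon in GENCODE M21, had the greatest difference of all genes tested, at 56.2 and 22.7 TPM after ROSI and listed at 0 after ICSI (limma adjusted p = 0.00341). Its short exon makes TPM large for its reads, 44 and 52. Eid3, a subunit of the SMC5/6 complex with high expression in testis, was at 8.47 and 4.92 TPM against 0.534, 0.764 and 0.623 TPM (2.19, SE 0.33, limma adjusted p = 0.0371). It lies inside Txnrd1 on the same strand, whose own level was 127 and 138 TPM against 139, 130 and 150 TPM. BC051142 was at 7.03 and 3.93 TPM against 1.32, 0.587 and 0.824 TPM (1.74, SE 0.27). Plekhf2, an endosomal protein, had the smallest change of the 25, from 5.67 and 4.85 TPM to 2.51, 2.60 and 2.99 TPM (0.76, SE 0.12, limma adjusted p = 0.0463). Mir7683 was at 8.16 and 4.48 TPM, on 5 and 8 reads, against 0 in every ICSI zygote, and it lies within Slamf7 on the same strand. Without the first ROSI sample the adjusted p was 0.357 for Eid3, 0.368 for BC051142, 0.359 for Plekhf2 and 0.211 for Mir7683.

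Among clones named from testis cDNA libraries, 5 of 452 tested were higher and none was lower (against 0.114% and 0.0319% of all genes). They were 1700019M22Rik (5.91 and 6.65 TPM against 0.328, 0 and 0 TPM), 1700123L14Rik (7.92 and 3.34 TPM against 0.111, 0 and 0 TPM), 4933415F23Rik (5.14 and 2.53 TPM against 0.0870, 0 and 0 TPM), 4930571K23Rik (3.79 and 2.14 TPM against 0 in all) and 1700019A02Rik (6.79 and 3.78 TPM against 0.748, 0.308 and 0.871 TPM). Both ROSI samples were above every ICSI sample for 24.3% of the testis clones, against 5.22% of 651 clones from other libraries and 6.97% of all genes. Both ROSI samples were below every ICSI sample for 7.52% of the testis clones and 20.7% of the other clones. The medians were 0.09 and -0.07. Of 1158 testis clones in the table, 452 were tested. Clones near 0 after ICSI could pass the filter only through samples in which they were high, and could hardly be lower. These shares therefore describe the clones and do not bear on their direction.

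Further genes had an unadjusted p below 0.01, non-overlapping samples and at least 5 TPM in the higher group but missed the adjusted threshold. Leaving out Gm, clone and RIKEN symbols, 42 of them were higher and 177 lower. The 15 named genes with the greatest positive difference included several known from testis. Pdcl2, a phosducin-like protein of spermatids, was at 17.0 and 6.66 TPM against 1.27, 1.07 and 0.643 TPM (limma adjusted p = 0.0609). Adam5, a sperm metalloprotease relative, was at 7.82 and 2.88 TPM against 0.136, 0.446 and 0.750 TPM, and Spink2, an acrosomal protease inhibitor, at 14.3 and 5.20 TPM against 1.52, 0.961 and 1.89 TPM. Dnaaf1, which assembles dynein arms, was at 13.2 and 5.20 TPM against 1.70, 1.26 and 1.38 TPM. Tex40, Spata4 and Fabp9, named for testis or sperm, had differences of 2.03, 2.07 and 1.99. The microRNA loci Mir301b and Mir1960 differed by 3.02 and 2.76, on at most 27 reads.

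Promoter letters were examined for the higher genes because spermatid genes are classically driven through cAMP response elements by Crem. RefSeq windows of 250 bases before to 50 after the gene start (GRCm38.p6) were found for 13 of the 25 genes, 18 windows in all. The full element TGACGTCA, read on both strands, was in 1.79% of 32851 windows, in 0 of the 18 and in 0.881% of the 227 windows of the spermatid lists. Its first 6 letters, TGACGT, which the full element contains, were in 7.51% of all windows, 2 of the 18 (Ldhc and BC051142) and 8.37% of the list windows. The letters TATAAA were in 13.6% of all windows and in 1 of the 18, that of Crisp2. The 2 windows are shown for the placing of these letters (capitals, either strand), Ldhc at chr7:46861013-46861312 on the plus strand and Crisp2 at chr17:40794097-40794396 on the minus strand.
Ldhc: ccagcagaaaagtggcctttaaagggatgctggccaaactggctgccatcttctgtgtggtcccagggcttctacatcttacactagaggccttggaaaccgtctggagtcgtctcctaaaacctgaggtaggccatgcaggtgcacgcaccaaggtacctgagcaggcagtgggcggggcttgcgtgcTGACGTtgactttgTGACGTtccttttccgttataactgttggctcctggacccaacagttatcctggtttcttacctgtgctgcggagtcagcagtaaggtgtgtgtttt
Crisp2: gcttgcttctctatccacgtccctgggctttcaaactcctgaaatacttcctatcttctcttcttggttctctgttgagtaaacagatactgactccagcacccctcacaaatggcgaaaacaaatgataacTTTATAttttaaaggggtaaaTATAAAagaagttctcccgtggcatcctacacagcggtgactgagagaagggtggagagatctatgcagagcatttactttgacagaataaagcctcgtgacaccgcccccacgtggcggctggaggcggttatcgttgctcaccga
In Ldhc the matches begin at -61 and -47 relative to the gene start, and in Crisp2 at -118 and -97. The shares in the higher genes' windows were not far from those of all windows, on 18 windows.

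Beyond these calls, presence in one group and absence in the other was also asked gene by gene. There were 15 genes at 1 TPM or more in both ROSI zygotes and listed at 0 in every ICSI zygote. They included, besides called genes, Ccer1, a coiled-coil protein of spermatids (3.04 and 1.10 TPM), Cylc2, a cylicin of the sperm head (5.26 and 1.70 TPM), Scp2d1 (2.49 and 1.17 TPM) and Spanxn4 (1.18 and 1.94 TPM), none of which passed. In the reverse direction there were 11 genes, mostly small RNA loci. The 2 counts are not on equal terms, since ROSI had 2 samples, the first with the fewest reads, and ICSI had 3. At short loci a few reads give more than 1 TPM, so a listed 0 does not show absence. Of the 11, the pseudogene Gm13224 and Mir361 passed.

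Of the 7 lower genes, 3 are annotated as protein-coding. Smc3, a core subunit of cohesin, was at 30.3 and 36.8 TPM in ROSI zygotes and at 56.9, 79.8 and 83.9 TPM in ICSI zygotes, a difference of -1.10 (SE 0.16, limma adjusted p = 0.0371). Stbd1, which tethers glycogen to membranes, was at 39.9 and 45.0 TPM against 62.9, 81.5 and 81.1 TPM (-0.80, SE 0.13, limma adjusted p = 0.0478). In both, the first ICSI sample was the closest to the ROSI samples, and the adjusted p without the first ROSI sample was 0.336 and 0.368. Gm21738, a predicted gene on chromosome 14, was at 2.49 and 0.952 TPM against 10.9, 11.6 and 8.35 TPM, and its adjusted p lay between 0.0639 and 0.153 over the 5 omissions. The other 4 rested on few reads. Gm13224 was listed at 0 after ROSI, on 0 and 0 reads against 6, 7 and 7, and Mir361 likewise on 0 and 0 against 3, 3 and 4. Both were also listed at 0 in every 2-cell sample. Those samples therefore added no spread to the shared estimate behind the p-values of these 2 loci. Gm44565 had 2 and 6 reads against 43, 35 and 21, and Gm22992 2 and 6 against 15, 11 and 12. Mir361 lies within Chm on the same strand.

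Cohesin and condensin as a list had 33 members tested, of which Smc3 alone passed. Smc4, of condensin, was at 210 and 214 TPM against 295, 410 and 368 TPM (-0.74, SE 0.16, limma adjusted p = 0.131). Stag2, Wapl and Espl1 differed by -0.32, -0.30 and -0.26 without passing. In all, 15 members had both ROSI samples below every ICSI sample (45.5%), and the median was -0.12. Among all genes 19.4% did so, rising with level to 32.8% of genes over 100 TPM, where the median was -0.10.

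Transcripts stored by the oocyte had no passing gene among 60, although 31 (51.7%) had both ROSI samples below every ICSI sample, against 19.4% of all genes and 32.8% of those over 100 TPM. H1foo, the oocyte linker histone, was at 700 and 778 TPM against 1097, 1368 and 1298 TPM (-0.76, SE 0.13, limma adjusted p = 0.0669). It passed on 3 other settings, with limma adjusted p of 0.00761 under array weights, 0.0183 with protein-coding genes rescaled and 0.0224 under quantile normalization. Whichever ICSI zygote sample was left out, H1foo did not pass, at limma adjusted p of 0.075, 0.242 and 0.218 in sample order. Oosp1, an oocyte secreted protein, was at 1207 and 1631 TPM against 1711, 2548 and 2485 TPM, and Gdf9, an oocyte growth factor, at 462 and 550 TPM against 600, 703 and 766 TPM. Zar1, which binds stored mRNA, was at 114 and 112 TPM against 152, 151 and 143 TPM. The list's median was -0.18, and it was -0.17 and -0.19 within the 2 classes of sample.

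Calcium signalling and the exit from meiosis were examined because ROSI zygotes alone met strontium. None of 57 genes passed. Itpr1, the calcium release channel of the egg, was at 33.5 and 32.4 TPM against 36.5, 37.9 and 38.9 TPM, and Fbxo43 (Emi2), the inhibitor that holds the egg in metaphase, at 167 and 148 TPM against 176, 184 and 176 TPM. Bub1b, a spindle checkpoint kinase, was at 69.7 and 93.0 TPM against 104, 121 and 132 TPM (-0.55, SE 0.14, limma adjusted p = 0.219), and Calm3, a calmodulin gene, at 33.0 and 30.2 TPM against 26.2, 25.5 and 22.8 TPM. Both ROSI samples were below every ICSI sample for 24 of the 57 (42.1%, against 19.4% of all genes and 31.4% of those between 20 and 100 TPM) and above for 2 (3.51%, against 6.97%). Immediate early genes, which many cells switch on after calcium entry, had no passing member among 32 and a median of 0.02. Fos was at 2.12 and 2.81 TPM against 2.80, 2.24 and 2.28 TPM, Egr1 at 35.7 and 27.1 TPM against 37.4, 25.1 and 24.3 TPM and Jun at 1.81 and 1.32 TPM against 1.19, 0.863 and 0.510 TPM, and the first 2 overlapped between groups.

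Genes of the first wave of zygotic transcription also had no passing member, 0 of 52. Zscan4c was at 5.03 and 3.31 TPM against 4.55, 3.92 and 3.21 TPM, Zscan4d at 5.08 and 6.91 TPM against 11.8, 8.51 and 8.66 TPM and Duxf3 at 15.2 and 14.4 TPM against 13.7, 9.95 and 9.01 TPM. Spz1 was at 7.77 and 7.52 TPM against 4.06, 3.51 and 5.30 TPM (0.72, SE 0.16, limma adjusted p = 0.14). For the Polycomb list, relevant because the study's title concerns paternal H3K27me3, 0 of 37 passed, with Ezh2, the methyltransferase, at 267 and 257 TPM against 260, 296 and 301 TPM. Kdm6b, a demethylase of the same mark, was at 149 and 135 TPM against 185, 148 and 140 TPM. None of 13 genes with H3K27me3-dependent imprints and none of 28 classical imprinted genes passed. In the last, Impact was at 4.15 and 3.42 TPM against 5.33, 5.82 and 5.31 TPM and Mest at 33.4 and 31.8 TPM against 42.3, 40.7 and 42.4 TPM.

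Genes of other cells of the testis were examined in the same way. Of 28 spermatocyte genes none passed, 3 had both ROSI samples above every ICSI sample (10.7%, against 6.97% of all genes) and 4 had both below (14.3%, against 19.4%). The 3 were Pgk2, a phosphoglycerate kinase of germ cells that is also in the metabolism list, at 2.94 and 2.06 TPM against 0.365, 0.200 and 0.142 TPM (limma adjusted p = 0.131), Syce3, of the synaptonemal complex, at 2.88 and 1.05 TPM against 0.701, 0.721 and 0.163 TPM, and Rec8, the meiotic cohesin, at 1.74 and 1.2 TPM against 0.423, 1.04 and 0.361 TPM. Sycp2, of the synaptonemal complex, lay the other way, at 37.5 and 32.9 TPM against 46.2, 48.9 and 51.1 TPM, and Sycp1 overlapped, at 16.3 and 13.6 TPM against 14.8, 21.1 and 20 TPM. The list's median was -0.04. None of 13 genes of Sertoli, Leydig and spermatogonial cells and none of 8 of cumulus and blood cells passed. Their medians were -0.06 and -0.12.

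**Figure D3:**
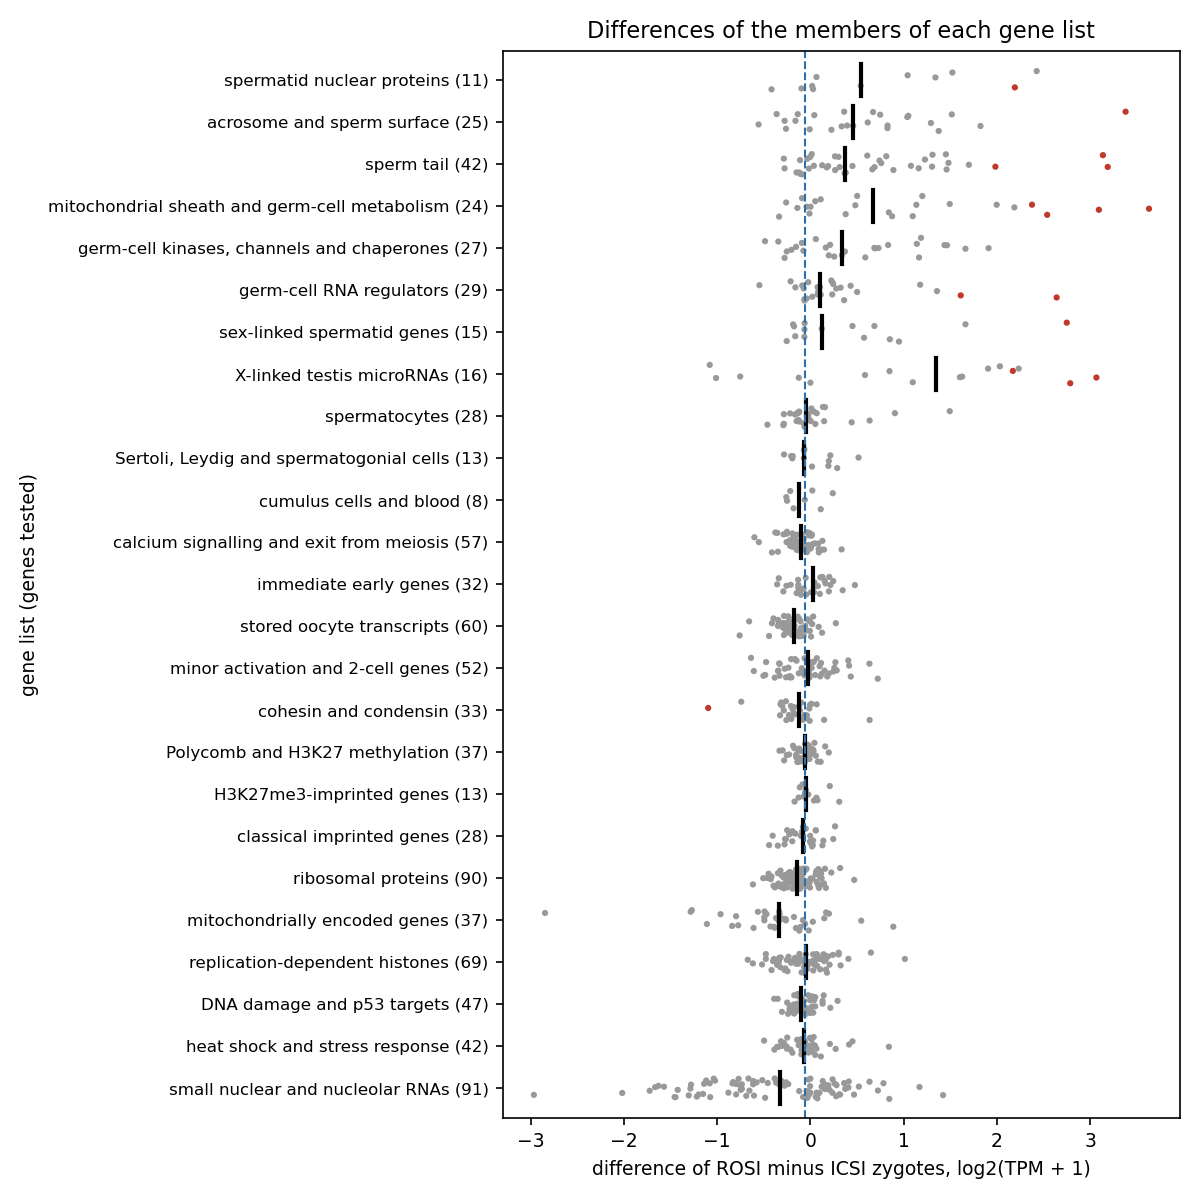
Differences of ROSI minus ICSI zygotes, on the scale of log2(TPM + 1), for the tested members of 25 gene lists, 1 point per gene, red where the gene passed, with a black bar at each list's median and a dashed line at the median of all genes (-0.06). Medians of the spermatid and microRNA lists run from 0.10 to 1.35, and the stored oocyte and cohesin lists have medians of -0.18 and -0.12.

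Housekeeping and stress lists had no passing gene. The medians were -0.14 for 90 ribosomal protein genes, -0.05 for 69 replication-dependent histone genes, -0.10 for 47 genes of DNA damage and p53 and -0.07 for 42 of heat shock. Rps26 was at 147 and 165 TPM against 218, 232 and 271 TPM (limma adjusted p = 0.0805), Hist4h4 at 134 and 151 TPM against 113, 105 and 103 TPM and Hsp90aa1 at 2111 and 1907 TPM against 2281, 2639 and 2744 TPM. The 37 mitochondrially encoded genes had a median of -0.34, which was 0.03 within the class poor in small nuclear RNA and -0.38 among the other samples. Among the named lower genes that did not pass, the greatest differences were those of mt-Tw (-2.84), Mir6352 (-1.96), n-R5s200 (-1.60), Igkv10-96 (-1.24) and Trav9-2 (-1.18). Smaller differences were seen for Copb1, of the vesicle coat (45.7 and 54.5 TPM against 77.0, 102 and 101 TPM, limma adjusted p = 0.0702), and Tmem9b (4.67 and 5.56 TPM against 9.83, 10.9 and 10.0 TPM, limma adjusted p = 0.0572). So it was for Mrps18c, of the mitochondrial ribosome (3.05 and 3.58 TPM against 7.35, 7.37 and 7.68 TPM, limma adjusted p = 0.118).

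The shares of some RNA classes in TPM did not overlap between the groups, without a test of the shares. Gm23935, a locus annotated as a microRNA, took 14.9% and 13.3% of TPM in ROSI zygotes and 10.6%, 8.31% and 8.55% in ICSI zygotes (limma adjusted p = 0.639). Protein-coding genes took 67.6% and 65.9% against 71.2%, 71.2% and 71.5%, and neither share overlapped between the groups. Rn7sk, the 7SK RNA, was at 27829 and 29388 TPM against 23522, 20937 and 20352 TPM without passing. TPM is a share of the sample, so a larger share of one class lowers the others. With protein-coding genes rescaled to a fixed total, the median of the genes tested was 0.01, and 101 genes were higher and 29 lower. In that fit 31 of the 195 spermatid genes tested passed as higher and none as lower. The main fit tested 171, of which 12 passed as higher, so the counts come from different gene sets. Members barely present after ICSI could hardly be lower in either fit, so this count does not bear on direction.

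**Figure D4:**
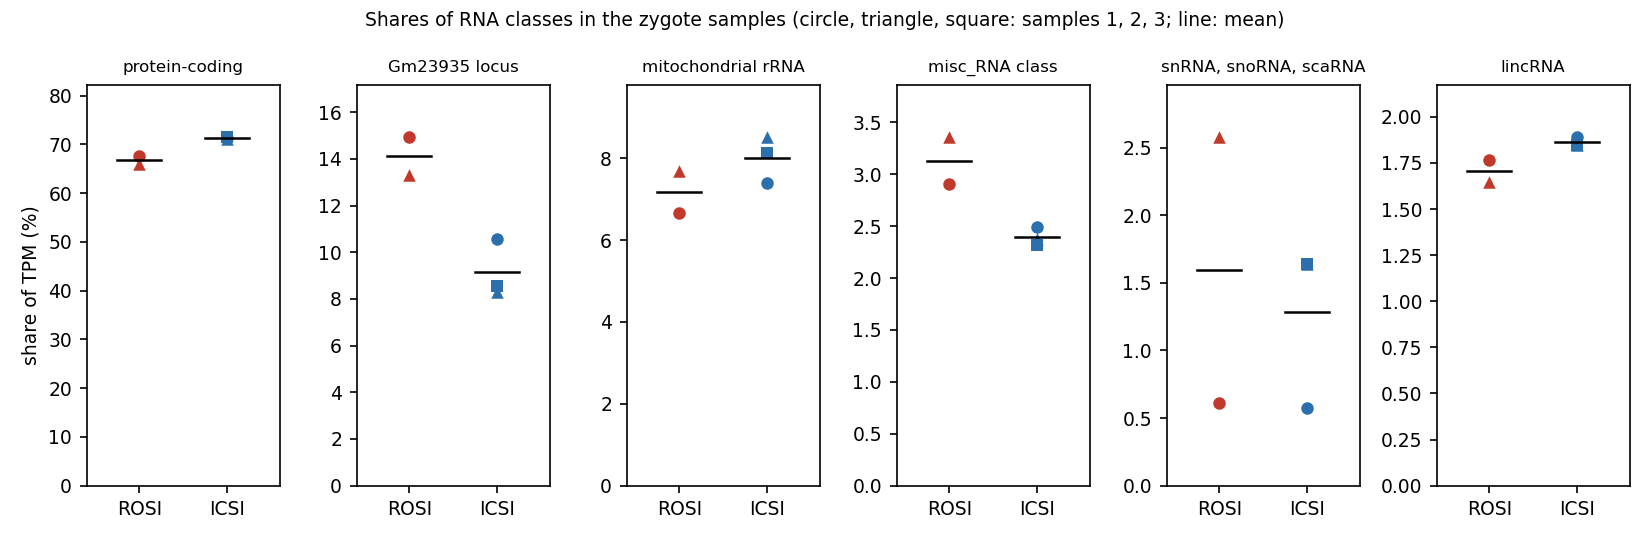
Percentage of TPM in 6 classes of RNA for the 2 ROSI and 3 ICSI zygote samples, with a line at each mean and every axis starting at 0. The Gm23935 locus lies higher and protein-coding RNA lower in both ROSI samples, while small nuclear and nucleolar RNA divides the samples across the groups, with the first of each (circles) at 0.611% and 0.572%.

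At the 2-cell stage 12 of the 25 genes higher in zygotes were higher again after ROSI (4.93% of all genes were). A positive difference was seen for 24, where the median over all genes was also positive (0.04). Genes at or near 0 in ICSI 2-cell embryos, such as Smcp and Gm45027, could hardly be lower there. The 2 counts therefore do not bear on direction. Both stages were tested with the same estimate of spread for each gene, so passing at both is not a separate repeat of the test. Smcp stood there at 12.1, 5.22 and 8.11 TPM after ROSI and was listed at 0 in all ICSI samples, and Crisp2 at 9.91, 6.28 and 9.44 TPM against 0, 0.0913 and 0 TPM. Gm45027 was at 13.1, 3.90 and 7.78 TPM against 0 in all. Tnp1 was at 4.03, 1.86 and 1.67 TPM against 0, 0.191 and 0.167 TPM. Ldhc and Tcp11, present in both groups at both stages, did not pass in 2-cell embryos: Ldhc was at 8.81, 11.6 and 9.30 TPM against 8.02, 10.7 and 7.55 TPM, and Tcp11 at 11.6, 14.9 and 12.3 TPM against 9.73, 13.3 and 9.53 TPM. The difference between the stages passed for none of the 25 (limma), against 0.0182% of all genes, with an adjusted p of 0.0673 for Ldhc and 0.077 for Mir741, which does not show that the differences were equal. Of the lower genes, Stbd1 was lower again in 2-cell embryos, as were 4.58% of all genes (-0.76, SE 0.11, limma adjusted p = 0.00551), Smc3 had a 2-cell difference of -0.07 that did not pass, and Gm44565 was higher there (0.89, SE 0.21, limma adjusted p = 0.0253).

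**Figure D5:**
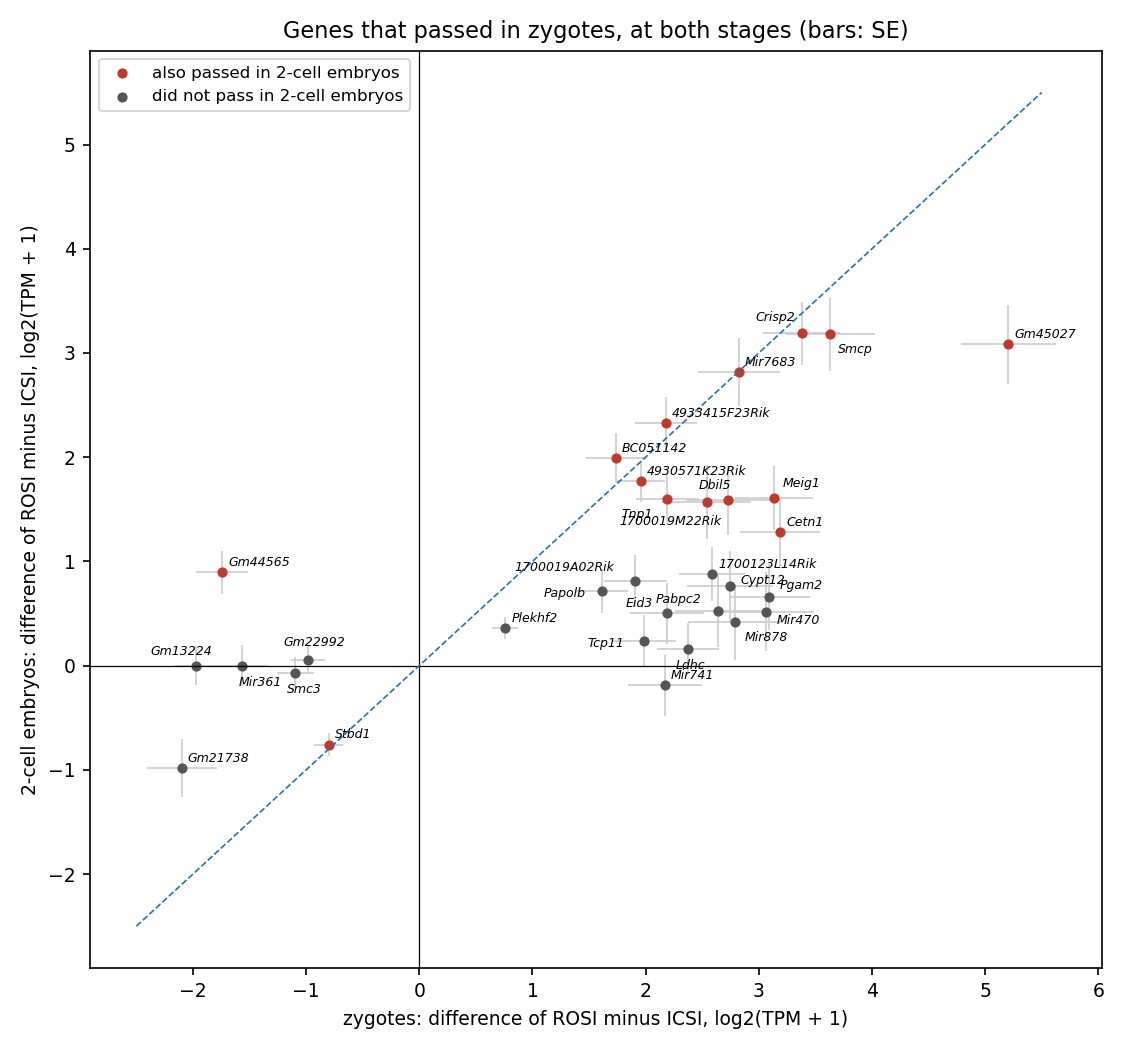
Difference of ROSI minus ICSI in 2-cell embryos (vertical) against that in zygotes (horizontal), on the scale of log2(TPM + 1), for the 32 genes that passed in zygotes, with bars of 1 SE and a dashed line of equality. Smcp, Crisp2 and Mir7683 lie near the line, whereas Ldhc, Tcp11 and the X-linked microRNA loci lie near 0 on the vertical axis.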

How the data were processed

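RNA was sequenced from ROSI and ICSI embryos with a stranded SMART-seq kit from 1 ng of total RNA, per the labels' protocols. The authors deposited a table of TPM with a column for each sample. Build mm10 and the tools STAR 2.7.4a, featureCounts, Bowtie2 and fastp are listed, without an order, per the submitters' processing notes. The annotation and the strand setting are not given in the sources used here. Of 49585 genes, 186 entries shared 93 symbols and 47096 matched GENCODE M21. Reads were recovered by dividing TPM times exon length by its smallest step, and 88.1% to 89.3% of zygote values lay within 0.01 of a whole number. These reads are a description. Intervals for single values are not given, since reads without molecular identifiers would cover counting error only.

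Genes with at least 1 TPM in 2 samples were tested on log2(TPM + 1) with limma 3.58.1 in R 4.3.3 (4 group means over 11 samples, eBayes with a trend) and Benjamini-Hochberg adjustment at 0.05, the call rule throughout. Scripts used python 3.11.15 and pandas 2.3.3, and the model was also run on simulated data. Only genes at ICSI levels above those of the genes called higher were changed there, so that run does not cover genes at such low levels. The members and the 27 lists were chosen with earlier results of these data known. Named genes were all that passed, up to 15 per direction with p below 0.01, non-overlapping samples and a mean of 5 TPM, up to 5 per list by p, a set of followed genes and 5 of the stage comparison. Outside this rule, Bmp15 and genes listed at 0 in a group were chosen once their values were known, and genes overlapping a called one are given for context. A term for the small nuclear RNA class was added after seeing the data. The replicate numbers were not treated as pairs.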

Additional observations from a re-analysis of the deposited data

Results flagged for a closer look

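Each of 4 genes had a difference of ROSI minus ICSI that itself differed between zygotes and 2-cell embryos (limma, 0.0182% of genes tested), and none is a spermatid transcript of the lists. Gm5542 was at 0.457 and 0.470 TPM against 0.0712, 0.183 and 0 TPM in zygotes, and at 15.4, 16.3 and 18.2 TPM against 41.5, 44.6 and 47.3 TPM in 2-cell embryos, so the zygote difference exceeded the 2-cell difference by 1.80 (SE 0.18, limma adjusted p = 0.026). Gucy2e, a guanylate cyclase gene, was at 4.01 and 3.67 TPM against 5.96, 6.43 and 5.92 TPM in zygotes, and at 14.1, 15.1 and 13.9 TPM against 4.88, 6.28 and 6.57 TPM in 2-cell embryos (difference between stages -1.72). For Gm44565 the value was -2.64, from a lower level after ROSI in zygotes and a higher one in 2-cell embryos. C130074G19Rik gave -1.52, at 0.722 and 1.12 TPM against 1.51, 1.54 and 1.38 TPM in zygotes and at 30.5, 34.4 and 33.0 TPM against 13.1, 15 and 14.3 TPM later. Between 0 and 9 genes passed when 1 zygote sample was left out.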

How the results depend on the processing

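The number of higher genes, lower genes and genes differing between stages (25, 7 and 4) moved with most settings. The counts were 1, 0 and 0 with a 2-fold threshold, 149, 162 and 220 with array weights, 40, 12 and 244 with median-ratio scaling, 71, 15 and 197 with quantile normalization, 101, 29 and 627 with protein-coding genes rescaled, 41, 23 and 3 with a pseudocount of 0.1 and 8, 1 and 94 with a pseudocount of 5. They were 68, 19 and 13 without a filter, 18, 8 and 71 with a filter of 5 TPM, 39, 9 and 3 without a variance trend, 26, 13 and 9 with the small RNA class as a term, and 0 and 0 with zygotes fitted alone. Leaving out 1 zygote sample gave 3 to 77 higher, 1 to 7 lower and 0 to 9 stage genes. With the replicate number as a block they were 4, 0 and 0. Deviations of same-numbered zygote samples correlated at 0.33 and 0.215, and the second ROSI sample correlated at 0.206 with the third ICSI sample. Deviations of the 2 ROSI samples from their mean mirror each other by construction. These correlations therefore cannot decide whether same-numbered samples belong together. Of the 32 called genes, 26 to 32 passed again under array weights, median-ratio and quantile scaling, no filter, no trend, robust fitting, the small RNA term and a pseudocount of 0.1. With protein-coding genes rescaled 21 passed and the other 11 were not tested. With a filter of 5 TPM 23 passed and 8 were not tested. All 32 were tested with a pseudocount of 5, where 8 passed, with the block (4), with the 2-fold threshold (1) and with zygotes alone (0). When an ICSI zygote sample was left out, 4 to 14 passed. Signs turned for 8 uncalled genes when 1 zygote sample was left out, with ranges of -0.14 to 0.15 for Fos (-0.0080 with the block), -0.17 to 0.31 for Zscan4c, -0.063 to 0.32 for Egr1, -0.092 to 0.67 for Hsd3b6, -0.22 to 0.70 for Tnfaip6, -0.40 to 0.041 for Has2, -0.19 to 0.0077 for Gab1 and -0.098 to 1.55 for Snord17. The cause was not tested. Few reads limit the microRNA loci, and 2 ROSI samples limit every comparison.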
